A study of Mus musculus with 6 samples.

Results

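The EGF ligands and ErbB receptors were examined in total kidney RNA of *Pkd1*-mutant mice. The 10 genes were 6 ligands (*Egf*, *Tgfa*, *Hbegf*, *Areg*, *Ereg*, *Btc*) and 4 receptors (*Egfr*, *Erbb2*, *Erbb3*, *Erbb4*), chosen by symbol among 23276 gene symbols. All 10 were listed, with 16 of the 54721 transcripts of the deposited table. RNA-Seq had been performed on 3 kidneys of KspCre; Pkd1 F/RC mice (SKO) and on 3 kidneys of mice that were also miR17∼92 F/F (DKO), at postnatal day 22 according to the labels. Kidneys of both groups therefore carried KspCre, a Cre recombinase active in renal tubules, together with a floxed *Pkd1* allele and the hypomorphic RC allele. The groups differed by floxed alleles of the miR-17∼92 microRNA cluster. The Cre is meant to act in the tubules only, so interstitial, vascular and blood cells of the kidney should keep the cluster. Recombination in each cell type was not measured here. No wild-type kidney was analysed here.

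The values were taken as means over all 6 kidneys. Levels of transcripts are given in CPM, the reads on a transcript scaled to the library size, back-transformed from the deposited log2 average. Levels of different genes were compared in CPM per kb, the CPM divided by the length of the transcript in kilobases. Because they are pooled over the kidneys, the spread between mice and the depth of each library are unknown, and a difference between DKO and SKO kidneys was not examined. The deletion could not be checked in these pooled means either. *Mir17hg*, the host transcript of the cluster, had a mean of 4.21 CPM and *Pkd1* a mean of 31.8 CPM over both groups. Markers of the labelled tissue were present, since all 28 markers of 9 renal cell types had a mean of at least 1 CPM. This is a weak check, because 13001 of the 23276 genes reached that level. In whole-kidney RNA, fewer cells of a type and less RNA per cell cannot be told apart.

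ErbB receptors are tyrosine kinases of the cell surface that work in pairs. EGF, TGFα, amphiregulin, epiregulin, HB-EGF and betacellulin are made as membrane-anchored precursors, released by proteases and bound by EGFR, and HB-EGF, betacellulin and epiregulin are also bound by ERBB4. ERBB2 has no ligand of its own and serves as the partner of the others, whereas ERBB3 binds neuregulins and has little kinase activity. In the kidney, EGF is made mainly in the thick ascending limb and distal convoluted tubule, and EGFR signalling is a known growth stimulus of cyst epithelia.

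*Egf*, the ligand gene of the distal nephron, was the most abundant member by a wide margin. Its level per length was 102.0 CPM per kb, above 99.0% of the 22662 genes with a known transcript length. Its assembled transcript had a mean of 491.9 CPM and its RefSeq transcript NM_010113 a mean of 485.6 CPM. The RefSeq model lies on the reverse strand of chromosome 3 of mm10, from 129677565 to 129755316, in 24 exons. Per kilobase, *Egf* was set beside the listed markers of the segments that make it. Of the 3 markers of the thick ascending limb, *Umod*, which encodes uromodulin, was at 374.4 CPM per kb, the sodium-potassium-chloride cotransporter gene *Slc12a1* at 132.5 and the claudin gene *Cldn16* at 6.06, so that *Egf* lay below the first pair and above *Cldn16*. The 3 markers of the distal convoluted tubule, *Slc12a3*, *Calb1* and *Trpm6*, lay between 1.60 and 42.99 CPM per kb, all below *Egf*.

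The other 5 ligands were far less abundant and did not sit at a common level. *Btc*, which encodes betacellulin, had a mean of 17.7 CPM, or 6.16 CPM per kb, above 80.0% of genes per kilobase. *Hbegf*, which encodes heparin-binding EGF, had means of 10.6 CPM for NM_010415 and 3.63 CPM for an assembled transcript. The RefSeq transcript of *Hbegf* was at 4.46 CPM per kb, above 73.9% of genes. *Tgfa*, which encodes TGFα, had a mean of 6.46 CPM, or 1.43 CPM per kb, and exceeded 54.8% of genes per kilobase. *Egf* was 16.6 times as abundant per kilobase as *Btc*, the next ligand, and accounted for 89.3% of the summed CPM per kb of the 6 ligands.

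*Areg* and *Ereg*, which encode amphiregulin and epiregulin, were the members below 1 CPM. *Areg* had a mean of 0.0782 CPM and *Ereg* a mean of 0.248 CPM. The lowest value in the table was 0.0263 CPM and was shared by 3870 genes. Per kilobase, *Areg* was at 0.0644 CPM per kb and *Ereg* at 0.0601 CPM per kb, above 29.1% and 28.6% of genes. The lowest CPM is the same for transcripts of different lengths. Levels per kilobase near it therefore depend on length as well as on reads. Without a spread between kidneys the pair cannot be ranked.

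These rare ligands share a chromosome with a more abundant one. On chromosome 5 of mm10, *Ereg* runs from 91074622 to 91093646 and *Areg* from 91139599 to 91148432, both on the forward strand. *Btc* lies on the reverse strand of the same chromosome, from 91357261 to 91402994. The remaining members were not clustered, except that *Egfr* and *Erbb2* share chromosome 11 at distant positions.

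**Figure D1:**
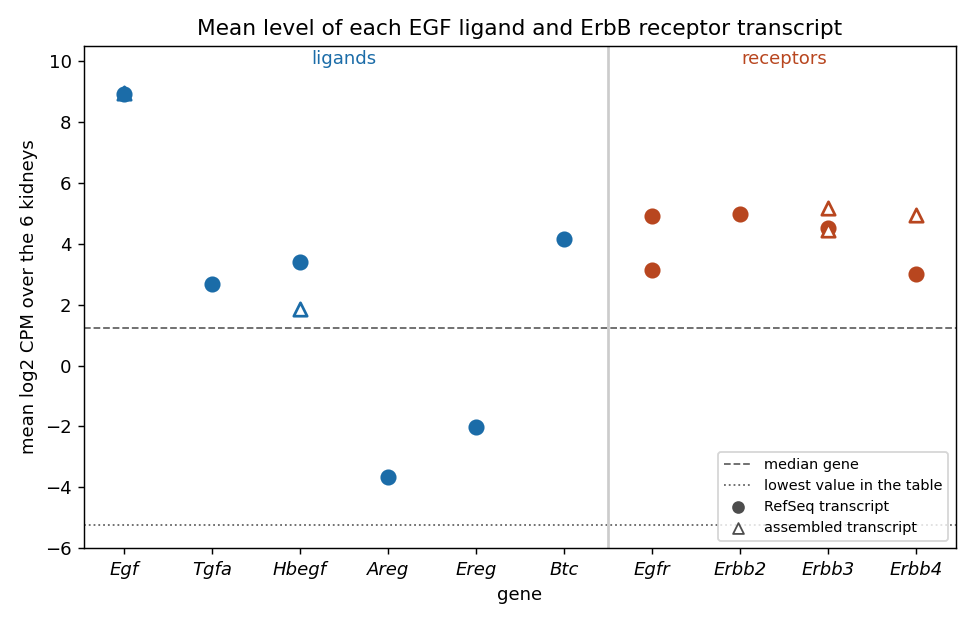
Mean log2 CPM over the 6 kidneys (vertical axis) of each transcript of the 6 ligand genes (blue) and 4 receptor genes (orange). Filled circles are RefSeq transcripts, open triangles are transcripts assembled from the reads, and the lines mark the median gene (2.36 CPM) and the lowest value in the table (0.0263 CPM). The values are not divided by length. *Egf* stands at 8.94, the most abundant transcript of each receptor lies between 4.90 and 5.18, and *Areg* and *Ereg* are below the median gene.

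All 4 receptors were expressed. *Erbb2*, which encodes the receptor without a ligand, had a mean of 31.6 CPM, or 6.31 CPM per kb, above 80.4% of genes per kilobase. *Erbb3*, which encodes the receptor with little kinase activity, was at 3.81 CPM per kb and exceeded 70.9% of genes. *Egfr* was at 2.92 CPM per kb, above 66.0% of genes, and *Erbb4* at 0.665 CPM per kb, above 46.9%. The level per kilobase thus differed 9.48-fold between *Erbb2* and *Erbb4*. Neighbours in this order cannot be separated because their spread is unknown. On the same scale *Egf* exceeded *Erbb2* 16.2-fold, *Erbb3* 26.7-fold, *Egfr* 34.9-fold and *Erbb4* 153.3-fold.

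The low place of *Erbb4* rests on its RefSeq transcript NM_010154, which had a mean of 8.01 CPM for a model of 12037 nucleotides. The assembled *Erbb4* transcript, whose length is not given in the table, had a mean of 30.6 CPM and was 3.82 times as abundant in CPM. The authors' version of each RefSeq transcript is not given in the sources used here and may differ in length from the model used, which bears most on *Erbb4* and *Egfr*.

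*Egfr* was listed with 2 RefSeq transcripts that differ at their 3′ ends. NM_207655 encodes the full receptor in 28 exons over 10208 nucleotides, from 16752211 to 16918158 on the forward strand of chromosome 11, and had a mean of 29.8 CPM. The short transcript NM_007912 ends after 16 exons, is 2943 nucleotides long and had a mean of 8.90 CPM. The models share 2197 nucleotides, and 746 nucleotides belong to the short transcript alone. Per kilobase the short transcript was at 3.02 CPM per kb and the full one at 2.92. These values do not give separate amounts of the 2 forms. Among pairs of a gene's transcripts, the longer at 1 CPM or more, 1507 had all exon bases of the shorter within the longer. The shorter had a median of 0.905 times the length of the longer and a median of 0.993 times its CPM. In 0 pairs was the CPM of the shorter below 0.1 times that of the longer. The *Egfr* models are not nested in this way, so these pairs do not settle how their shared reads were counted.

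*Erbb3* was listed with 3 transcripts. The RefSeq transcript NM_010153, on chromosome 10 from 128567523 to 128589652, had a mean of 23.0 CPM. The assembled transcripts had means of 36.4 and 22.0 CPM, and the highest exceeded the lowest 1.65-fold. *Erbb2* and *Btc* were listed with a single transcript each, as were *Tgfa*, *Areg* and *Ereg*.

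**Figure D2:**
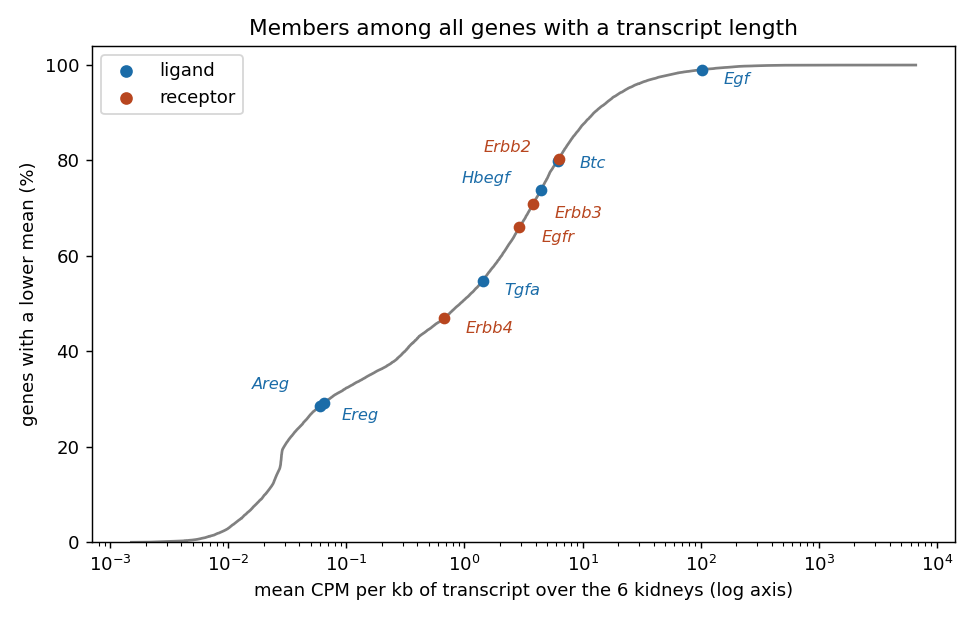
Percentage of the 22662 genes with a known transcript length that have a lower mean (vertical axis) against the mean CPM per kb over the 6 kidneys (horizontal axis, logarithmic), with 1 RefSeq transcript per gene. The grey line is the whole table and the points are the ligands (blue) and receptors (orange). The receptors lie between 46.9% for *Erbb4* and 80.4% for *Erbb2*, while the ligands spread from 28.6% for *Ereg* to 99.0% for *Egf*.

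The further genes of the pathway were examined by role. Over all 23276 genes, 13001 had a mean of at least 1 CPM. Of 36 genes in these lists, 32 did. The 4 exceptions were ligands. Of the 5 remaining ErbB ligands, only *Nrg1*, a neuregulin that binds ERBB3 and ERBB4, passed 1 CPM, with a mean of 4.87 CPM. *Nrg4* had a mean of 0.717 CPM and *Nrg2* one of 0.239 CPM, and *Epgn* and *Nrg3* were at 0.0697 and 0.0441 CPM. Per kilobase, *Erbb3* was 3.28 times as abundant as *Nrg1*, the most abundant neuregulin gene.

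The genes for release of the ligands were all expressed. *Adam10*, which encodes the protease that releases EGF and betacellulin, was at 17.8 CPM per kb. *Adam17*, which encodes the protease that releases TGFα, amphiregulin and HB-EGF, was at 7.19 CPM per kb. The ADAM17 cofactor genes *Rhbdf1* and *Rhbdf2* were at 5.67 and 2.07 CPM per kb.

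All 9 inhibitors were above 1 CPM. *Errfi1*, which encodes the feedback inhibitor MIG6 of the EGFR kinase, was the most abundant of them at 45.8 CPM per kb, above 97.6% of genes, and the other 8 lay between 1.002 and 7.01 CPM per kb. The 18 transducers, which carry the signal from the receptors into the cell, ranged from 2.38 to 18.04 CPM per kb, with a median of 7.38 CPM per kb. Among the kinase genes of this list, *Mapk3*, which encodes ERK1, was at 18.04 CPM per kb and *Akt1* at 17.1 CPM per kb. The adaptor gene *Grb2* was at 11.6 CPM per kb, the phosphatase gene *Ptpn11* at 10.3 and the transcription factor gene *Stat3* at 12.5. All 18 transducers were above the median gene at 0.919 CPM per kb, as were all 9 inhibitors and all 4 genes for release. Of the 10 members, 7 were above it, the exceptions being *Areg*, *Ereg* and *Erbb4*.

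**Figure D3:**
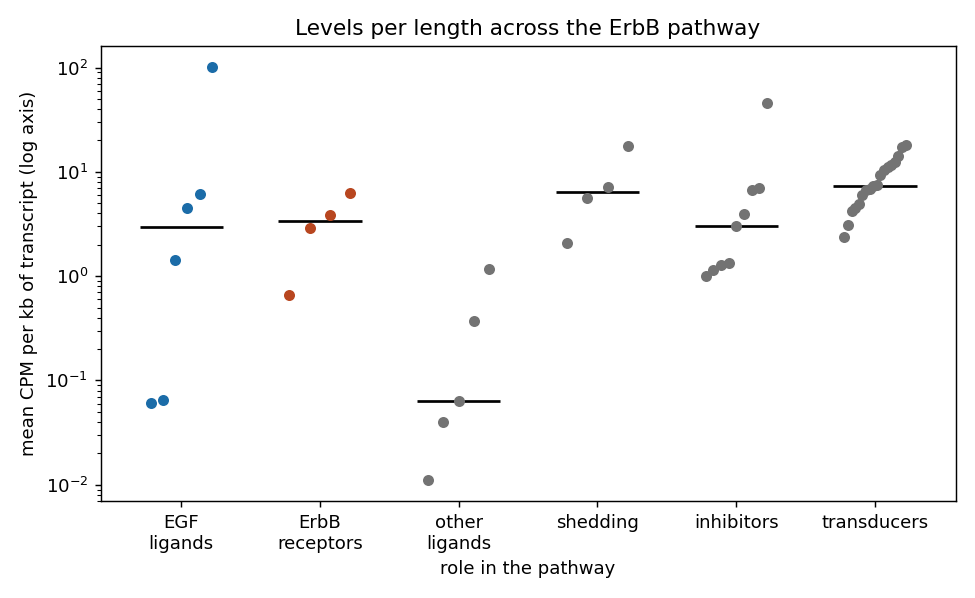
Mean CPM per kilobase of transcript over the 6 kidneys (vertical axis, logarithmic) of the EGF ligands, ErbB receptors and further pathway genes by role (horizontal axis). Each point is a gene and each bar the median of its group. *Egf* at 102.0 CPM per kb stands above every other gene drawn, followed by *Errfi1* at 45.8, and ligand genes fill the low end down to *Nrg3* at 0.0110. The *Nrg3* value rests on 0.0441 CPM, near the lowest value in the table (0.0263 CPM).

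Because the DKO kidneys carry floxed alleles of miR-17∼92, the members' 3′-UTRs were searched for its seeds. A microRNA pairs with its target mainly through bases 2 to 8, and the cluster's members share 4 such seeds. The mature sequences from RefSeq (GRCm38.p6) are given with bases 2 to 8 in capitals, to show which members of the cluster share a seed. All of them are encoded on the forward strand of chromosome 14.
miR-17-5p: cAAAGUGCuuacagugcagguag
miR-20a-5p: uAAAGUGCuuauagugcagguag
miR-18a-5p: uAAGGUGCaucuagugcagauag
miR-19a-3p: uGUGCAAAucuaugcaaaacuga
miR-19b-3p: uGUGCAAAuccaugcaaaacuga
miR-92a-3p: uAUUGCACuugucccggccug

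The complementary 7-letter sites are GCACTTT for miR-17 and miR-20a, GCACCTT for miR-18a, TTTGCAC for miR-19a and miR-19b and GTGCAAT for miR-92a. They were sought on the transcript strand only. Of 18919 genes with a 3′-UTR, 11.0% held GCACTTT, 7.22% GCACCTT, 10.05% TTTGCAC and 5.98% GTGCAAT, and 26.4% held at least 1 of them. Among the members, 4 of 10 held at least 1, with 8 sites in all. These were the members with the longest 3′-UTRs, at 3501 nucleotides or more, against a median of 785 nucleotides over all genes. Of genes with a 3′-UTR 0.8 to 1.2 times as long, most also held at least 1. The shares were 76.8% for *Egfr*, 64.2% for *Tgfa*, 62.3% for *Ereg* and 80.5% for *Erbb4*. For the members without a match they ran from 6.58% for *Areg* to 43.3% for *Btc*.

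Sites for miR-17 and miR-20a were found in *Egfr*, *Tgfa* and *Ereg*. They are shown 5′ to 3′ on the transcript strand, with the match in capitals and up to 10 bases on each side, because they are the members' only matches to the seed for which the cluster is named. All lie in the last exon of the transcript, within the 3′-UTR.
*Egfr*, chr11:16912029-16912055, forward strand: ctctcctgatGCACTTTgggaagttga
*Tgfa*, chr6:86273591-86273617, forward strand: accacgcccaGCACTTTttgattacta
*Ereg*, chr5:91093229-91093255, forward strand: agcataaacaGCACTTTcaggctacat
*Ereg*, chr5:91093361-91093387, forward strand: ctctgccattGCACTTTgtaaatctgt

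The match in *Egfr* begins 184 nucleotides after the stop codon of the full transcript, in a 3′-UTR of 6303 nucleotides. The short *Egfr* transcript has a 3′-UTR of its own of 695 nucleotides and held 0 sites. Of 409 genes whose 3′-UTR is 0.8 to 1.2 times as long as that of the full *Egfr* transcript, 45.5% held GCACTTT. In *Tgfa* the match begins at position 1646 of 3764, and 30.8% of 3′-UTRs of like length held it. In *Ereg* the matches begin at positions 3094 and 3226 of 3501, and 29.6% of 3′-UTRs of like length held at least 1. *Ereg*, however, was among the rarest members in these kidneys.

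*Erbb4* held no match for miR-17 and was the member with matches for miR-18a and, beside *Ereg*, for miR-19. Its sites are on the reverse strand of chromosome 1 and in the last of 27 exons.
*Erbb4*, miR-19, chr1:68039707-68039733: ctttcttctcTTTGCACacactctctc
*Erbb4*, miR-19, chr1:68038915-68038941: agaaaagtagTTTGCACttaagctata
*Erbb4*, miR-18a, chr1:68037361-68037387: attactgtcaGCACCTTtggaatgcta
*Ereg*, miR-19, chr5:91093345-91093371: tttttgcctgTTTGCACtctgccattg

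The first *Erbb4* site was followed by an A and was the only one of the 8 that was. The 3′-UTR of *Erbb4* is 7855 nucleotides long, and 80.5% of 205 genes with a 3′-UTR of like length held at least 1 of the 4 sites. *Egf*, *Btc*, *Hbegf*, *Areg*, *Erbb2* and *Erbb3* held 0 sites in 3′-UTRs of 253 to 2069 nucleotides. For *Egf*, whose 3′-UTR has 755 nucleotides, 20.4% of genes of like length held at least 1. A match is a run of letters and not a site shown to be bound.

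**Figure D4:**
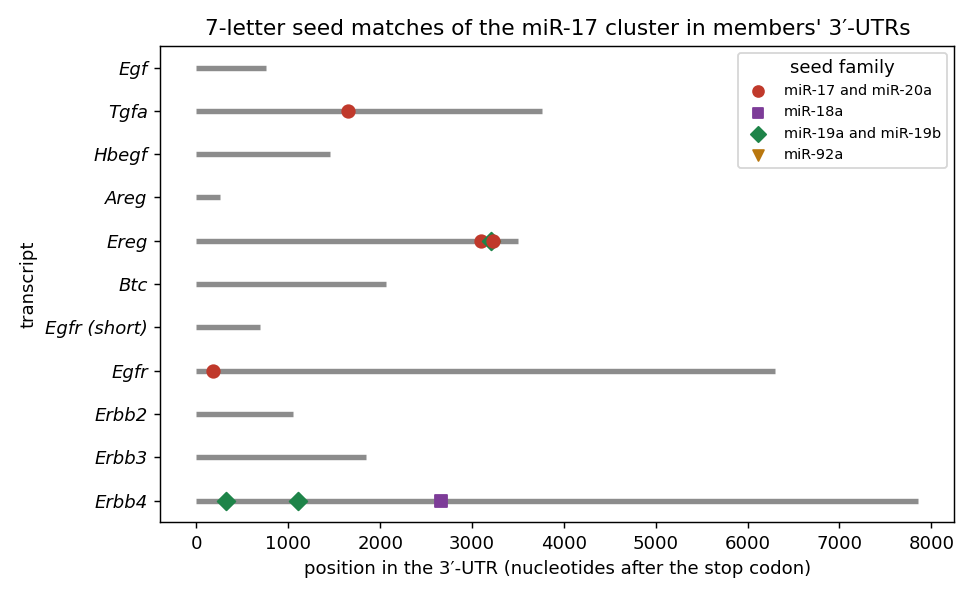
Positions of 7-letter seed matches along the 3′-UTRs of the members' RefSeq transcripts, in nucleotides after the stop codon (horizontal axis), with 1 row per transcript and a symbol per seed family. Grey bars span each 3′-UTR. The 8 matches fall in *Egfr*, *Tgfa*, *Ereg* and *Erbb4*, and no match to miR-92a is drawn because none was found.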

How the data were processed

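Strand-specific total RNA libraries of 6 kidneys were sequenced by the authors, who trimmed the reads, mapped them with TopHat to mm10 and kept alignments with a mapping quality of at least 10. The submitters' processing notes name TopHat2 2.0.12, Cufflinks, featureCounts of Subread 1.4.6 and edgeR 3.2.4. The deposited log2 values used here are the logCPM of edgeR, taken as an average for each transcript over all kidneys. The CPM given here are these values back-transformed from log2. Which libraries entered the average, how edgeR formed it and any small count added to it are not stated in the sources used. The table also holds the authors' log2 fold changes, likelihood ratio statistics, p-values and adjusted p-values of DKO against SKO, which were not used. It holds no count for a single kidney, so the planned test of DKO against SKO, by edgeR's quasi-likelihood method, could not be run. Depth is unknown and no interval was set.

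For each gene, the listed transcript of highest mean CPM was taken. RefSeq identifiers of 29135 transcripts were paired with GENCODE vM21 models (GRCm38, the same assembly as mm10) for lengths and 3′-UTRs. Levels per kilobase used a gene's most abundant paired transcript. Antisense genes overlap exons of *Egf*, *Ereg* and *Tgfa* in the annotation, *Mien1* shares 9 bases with *Erbb2*, and whether counting used strand is not stated. Members were chosen by symbol, and members and lists were chosen with earlier results of these data known. The genes named are the members and, of the 10 pathway genes of highest mean CPM, all but 2 that are not reported here. The 5 further ligands, *Rhbdf1* and *Rhbdf2* fall outside this rule and were chosen after their values were seen. *Mir17hg* and *Pkd1* were named as the targeted genes. The markers set beside *Egf* were taken from the marker list. The planned comparison of proteins was not run. The search for GCACTTT was tested on simulated sequences drawn without the letter T, with 200 planted sites. No other match could arise there, so the test shows only that planted sites are found. Python 3.11.15, numpy 2.4.6 and pandas 2.3.3 were used.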

Additional observations from a re-analysis of the deposited data

How the results depend on the processing

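No paired analysis was possible because only means over all kidneys were used. For the same reason DESeq2, other size factors, a filter on counts and leaving out each kidney were not run. The number of members with at least 1 CPM was 8 whether a gene was given by its highest transcript, by the median or the sum over its transcripts, or by RefSeq mRNAs alone. By the highest transcript, 13001 of all 23276 genes had at least 1 CPM. With RefSeq mRNAs alone, *Erbb4* was at 8.01 in place of 30.6 CPM and *Erbb3* at 23.0 in place of 36.4 CPM, so the CPM of these receptors depends on the assembled transcripts. The median over transcripts placed *Egfr* at 19.4, *Erbb3* at 23.0 and *Erbb4* at 19.3 CPM. The sum, which counts shared reads more than once, placed *Egf* at 977.4 and *Erbb3* at 81.3 CPM. The members above the median gene numbered 8 in CPM, also among genes with a RefSeq mRNA, and 7 per kilobase, where *Erbb4* fell below it. Among genes with at least 1 CPM they numbered 6. Seed matches depended on the length required. With bases 2 to 7, 8 members held a match, and with bases 2 to 8 followed by A, 1 member did, *Erbb4*. Over all 18919 genes, bases 2 to 7 were matched in 33.5% for miR-17 and miR-20a and 28.8% for miR-18a. The shares were 21.4% for miR-19 and 21.8% for miR-92a. With bases 2 to 8 followed by A they were 3.29%, 1.23%, 4.51% and 2.09% in the same order. The share of genes holding a match of any family was not computed for these lengths of match. How well the means are determined is limited by the unknown depth and spread.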
